A study of Rattus norvegicus with 6 samples.

Results

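Genes of the lysosome were chosen by symbol for this comparison, comprising 6 cysteine cathepsins (Ctsb, Ctsc, Ctsk, Ctsl, Ctss and Ctsz), the aspartic cathepsin Ctsd, the asparaginyl endopeptidase Lgmn and the lysosome-associated membrane proteins Lamp1 and Lamp2. Of these 10 genes, 9 were matched by symbol among the 28293 genes of the deposited table, and all 9 passed the filter on low values. Lamp2 matched no row and was not analysed here. The genes were taken by name, from a list drawn up with earlier results of these data known. The libraries came from myocardium, 3 of them from sham and 3 from rats with myocardial ischemia/reperfusion injury (MI/RI). For MI/RI a tie was placed around the left anterior descending coronary artery for 30 min and then released, and the heart was taken at 6 h of reperfusion. The labels give the same times for sham, and all 6 rats were male and wild type, with strain and age not given in the sources used here. Each group is bulk tissue, and the sources used here do not say which part of the ventricle was taken.

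Lysosomes are acidic organelles that digest material delivered by endocytosis, phagocytosis and autophagy. Cathepsins are made as inactive precursors, are carried to the lysosome largely through mannose 6-phosphate receptors, and are activated by proteolysis at low pH. Lgmn encodes legumain, which cleaves after asparagine and takes part in maturing several cathepsins. LAMP1 is a heavily glycosylated protein that makes up much of the lysosomal membrane. In the heart, cardiomyocytes use lysosomes for autophagic turnover, while macrophages, fibroblasts and endothelial cells also carry abundant cathepsins.

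On the scale of the deposited values, Lamp1, Ctsd, Lgmn, Ctsb and Ctsz were higher in MI/RI myocardium than in sham, by 2.04-, 2.25-, 2.43-, 1.96- and 1.59-fold of the group means. Ctsc, Ctsk, Ctss and Ctsl did not pass the test, with log2 fold changes from -0.21 to 0.03. The groups were compared with limma on log2(FPKM + 0.1), where FPKM are fragments scaled to the length of the gene and the size of the library, and a gene was called at a Benjamini-Hochberg adjusted p under 0.05 over 10942 genes. By this test 5 of the 9 genes were called higher and 0 lower, and at an unadjusted p under 0.05 the limma counts were also 5 and 0. Of all genes tested, 25.5% were called higher and 7.36% lower. The median log2 fold change was 0.65 over the 9 genes and 0.29 over all genes tested. Except for Ctsz, the 9 genes had a mean of at least 5 FPKM over the 6 libraries, and among the 3784 genes with such a mean the median was 0.66 and 45.2% were called higher. In bulk tissue, fewer cells of a type and less RNA per cell cannot be told apart.

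These calls depended on how the libraries were scaled. The 13 mitochondrially encoded mRNAs took 80.1%, 85.1% and 86.2% of the summed FPKM in the 3 sham libraries and 61.8%, 70.9% and 71.5% in the 3 MI/RI libraries, and all other genes made up the rest. When each library was rescaled over the remaining genes, the median over the 10942 genes moved from 0.29 to -0.46 on the log2 scale, and calls went from 2790 higher and 805 lower to 793 higher (7.25%) and 2857 lower (26.1%). Of the 9 lysosomal genes, 0 were then called higher and 3 lower (limma adjusted p), and at an unadjusted p under 0.05 the counts were 0 and 4. When the libraries were quantile normalized, 0 of the 9 were called higher and 2 lower by limma (1 and 4 unadjusted). Fold changes below are on the scale of the deposited FPKM unless stated, and the distance between genes is the same on both scales apart from the pseudocount.

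**Figure D1:**
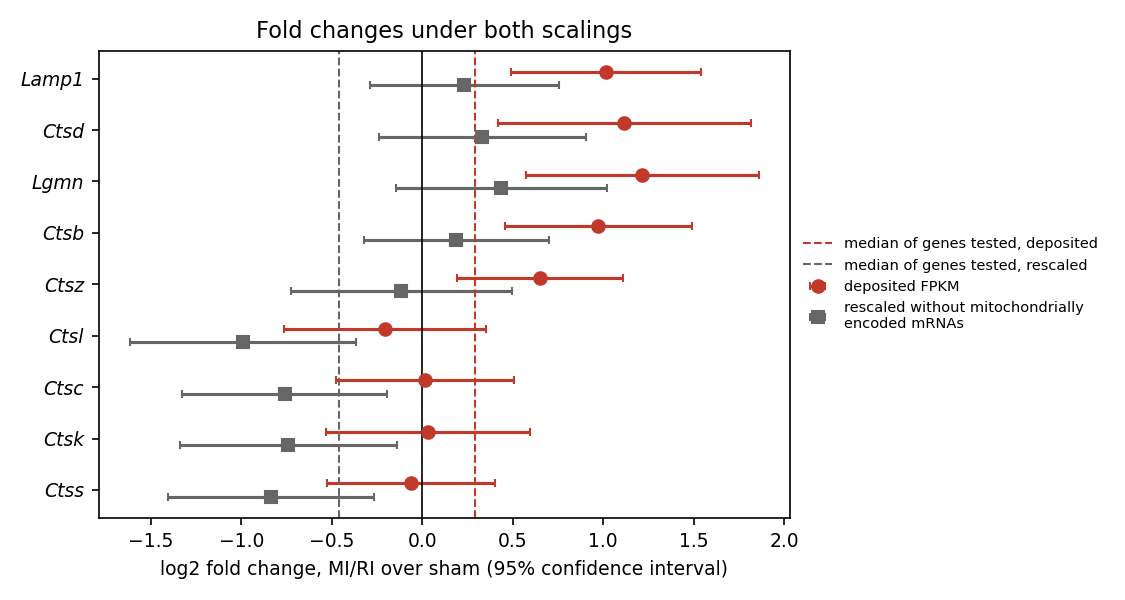
Log2 fold change of each gene, MI/RI over sham, with its 95% confidence interval, from limma on the deposited FPKM (circles) and after rescaling over genes other than the mitochondrially encoded mRNAs (squares). Dashed lines mark the median over the 10942 genes on each scale, 0.29 and -0.46. On both scales Lamp1, Ctsd, Lgmn, Ctsb and Ctsz lie above that median and Ctsl, Ctsc, Ctsk and Ctss below it.

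Lamp1 (ENSRNOG00000019629), the membrane glycoprotein gene, measured 36.7, 39.3 and 32.8 FPKM in the sham rats and 90.9, 63.9 and 67.5 FPKM in the MI/RI rats. All 3 MI/RI values lay above all 3 sham values, and the means were 36.3 ± 3.26 and 74.1 ± 14.6 FPKM (SD, n = 3 each). The log2 fold change was 1.01 (SE 0.24, limma adjusted p = 0.0112). It stayed past the threshold when any 1 of the 6 rats was left out, and 19.0% of the genes tested had a higher log2 fold change.

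The stretch of 250 bases before the Lamp1 start site is shown here because it stood apart from other promoters in its number of CACGTG motifs, the core letters of the element that TFEB and related MiT/TFE factors are known to bind in lysosomal genes. The motif reads the same on both strands, and it was chosen after the expression values had been seen. Sequences and start sites are those of RefSeq on GRCr8, which covered 8 of the 9 genes, and the capitals mark CACGTG. Ctsb, 1 of the genes called higher, had no sequence there, so its motif count is not known. The Lamp1 stretch lies on the minus strand at chr16:83075064-83075313, Ctsd on the minus strand at chr1:206968822-206969071, and Ctss, shown as a gene of the set without a match, on the plus strand at chr2:185775146-185775395.
Lamp1: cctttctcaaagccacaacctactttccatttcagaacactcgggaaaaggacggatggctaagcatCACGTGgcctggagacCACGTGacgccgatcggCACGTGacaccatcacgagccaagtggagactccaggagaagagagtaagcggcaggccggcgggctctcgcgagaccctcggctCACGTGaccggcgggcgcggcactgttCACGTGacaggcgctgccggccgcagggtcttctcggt
Ctsd: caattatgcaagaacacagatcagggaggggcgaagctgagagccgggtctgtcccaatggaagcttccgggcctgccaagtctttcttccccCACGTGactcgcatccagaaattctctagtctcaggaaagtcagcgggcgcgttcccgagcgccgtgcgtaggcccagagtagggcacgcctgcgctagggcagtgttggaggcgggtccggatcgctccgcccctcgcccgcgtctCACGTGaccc
Ctss: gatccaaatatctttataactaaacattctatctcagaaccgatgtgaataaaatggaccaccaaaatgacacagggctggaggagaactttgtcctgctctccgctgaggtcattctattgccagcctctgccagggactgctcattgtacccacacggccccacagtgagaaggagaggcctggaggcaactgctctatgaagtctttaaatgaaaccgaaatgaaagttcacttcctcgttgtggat
The Lamp1 window held 5 copies, beginning at positions -183, -167, -150, -65 and -38 counted from the start site, and the Ctsd window held 2 copies, beginning at -157 and -10. The other 6 genes with a sequence had no match in this window. The same window of Lamp2, which was not analysed for expression, held no match either. Over all 33469 promoters of the same length, 1872 (5.59%) held the motif, 144 (0.43%) held 2 or more copies and 1, that of Lamp1, held 5 or more. Lgmn, with the largest log2 fold change of the 9 genes, was among those without a match. A match describes letters in the sequence and not a bound site, and binding was not measured in these samples.

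Ctsd (ENSRNOG00000020206) encodes cathepsin D, the main aspartic protease of lysosomes. It measured 41.8, 39.8 and 27.8 FPKM in sham and 120.0, 67.2 and 58.6 FPKM in MI/RI, with no overlap between the groups. The means were 36.5 ± 7.57 and 81.9 ± 33.2 FPKM (SD, n = 3 each), and the log2 fold change was 1.12 (SE 0.31, limma adjusted p = 0.0228). The call was lost without MI/RI replicate 1, which carried the highest value (log2 fold change 0.80, adjusted p = 0.0511), without sham replicate 2 (1.19, adjusted p = 0.0625) and without sham replicate 3 (0.93, adjusted p = 0.0885), and with no filter on low values (adjusted p = 0.0537).

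Lgmn (ENSRNOG00000007089), which encodes legumain, measured 9.72, 10.2 and 7.87 FPKM in sham and 32.2, 16.0 and 19.3 FPKM in MI/RI. The groups did not overlap, and MI/RI replicate 1 was again the highest library. The means were 9.27 ± 1.24 and 22.5 ± 8.58 FPKM (SD, n = 3 each), and the log2 fold change of 1.22 (SE 0.29, limma adjusted p = 0.0121) was the largest of the 9 genes. It lay between 0.93 and 1.43 when each rat was left out in turn, and the adjusted p did not go above 0.0482.

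Ctsb (ENSRNOG00000010331) encodes cathepsin B, a cysteine protease that cuts both inside proteins and from their carboxy-terminal end. It measured 56.7, 57.9 and 45.6 FPKM in sham and 119, 91.9 and 104 FPKM in MI/RI, again without overlap. The means were 53.4 ± 6.83 and 105 ± 13.5 FPKM (SD, n = 3 each), and the log2 fold change was 0.97 (SE 0.23, limma adjusted p = 0.0124). Without sham replicate 3, the lowest library, it was 0.86 and fell short of the threshold (adjusted p = 0.0581).

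Ctsz (ENSRNOG00000050697), the gene of the carboxypeptidase cathepsin Z, was the least abundant of the 9 in both groups. It measured 3.32, 3.48 and 3.68 FPKM in sham and 4.99, 5.91 and 5.76 FPKM in MI/RI, so that the groups were apart by more than the spread within either. The log2 fold change was 0.65 (SE 0.21, limma adjusted p = 0.0353). This call was the least stable of the 5 under the alternatives run, since it was lost without any 1 of 5 of the rats (adjusted p from 0.0693 to 0.116, kept only without MI/RI replicate 1) and after centring each library on its median (log2 fold change 0.40, adjusted p = 0.146).

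Ctsl (ENSRNOG00000018566) encodes cathepsin L, a broadly acting lysosomal endopeptidase, and was the most abundant of the 9 genes in sham. It measured 67.2, 112 and 86.7 FPKM in sham and 76.0, 72.5 and 76.7 FPKM in MI/RI. The MI/RI values lay inside the sham range, and the coefficient of variation was 25.2% in sham and 3.01% in MI/RI. The log2 fold change was -0.21 (95% confidence interval -0.77 to 0.35, limma adjusted p = 0.551), and 74.3% of the genes tested had a higher one. It was -0.39 without sham replicate 1, -0.02 without sham replicate 2 and -0.01 as TPM, and passed the threshold in none of these. After the rescaling without mitochondrially encoded mRNAs it was -0.99 (limma adjusted p = 0.0194), and under quantile normalization -1.24 (limma adjusted p = 0.0258). Rodents carry a cluster of placental cathepsin genes related in sequence to Ctsl, and how reads shared between such genes were counted is not given in the sources used here.

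Ctsc, Ctsk and Ctss differ in where they are best known. Cathepsin C activates the serine proteases of neutrophils and other leukocytes, cathepsin K is a collagenase best known from osteoclasts, and cathepsin S trims the invariant chain in antigen-presenting cells. Ctsc (ENSRNOG00000016496) measured 5.85, 5.51 and 5.89 FPKM in sham and 7.08, 4.97 and 5.54 FPKM in MI/RI. Ctsk (ENSRNOG00000021155) measured 5.69, 6.50 and 5.81 FPKM in sham and 8.52, 4.91 and 5.48 FPKM in MI/RI. In both genes MI/RI replicate 1 was the highest of the 6 libraries while the other two MI/RI libraries lay within or below the sham range. Ctss (ENSRNOG00000021157) measured 7.87, 8.32 and 7.87 FPKM in sham and 7.44, 8.70 and 6.99 FPKM in MI/RI, and the groups overlapped.

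The log2 fold changes of these genes were 0.01 for Ctsc (95% confidence interval -0.48 to 0.51), 0.03 for Ctsk (-0.53 to 0.60) and -0.06 for Ctss (-0.53 to 0.40), with limma adjusted p of 0.97, 0.934 and 0.841. The widest of these intervals, that of Ctsk, leaves room for changes of this size in either direction. After the rescaling without mitochondrially encoded mRNAs, the log2 fold changes were -0.76 for Ctsc (limma adjusted p = 0.0397), -0.74 for Ctsk (0.0548) and -0.84 for Ctss (0.027). Under quantile normalization Ctss was also called lower (log2 fold change -0.60, limma adjusted p = 0.0473).

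**Figure D2:**
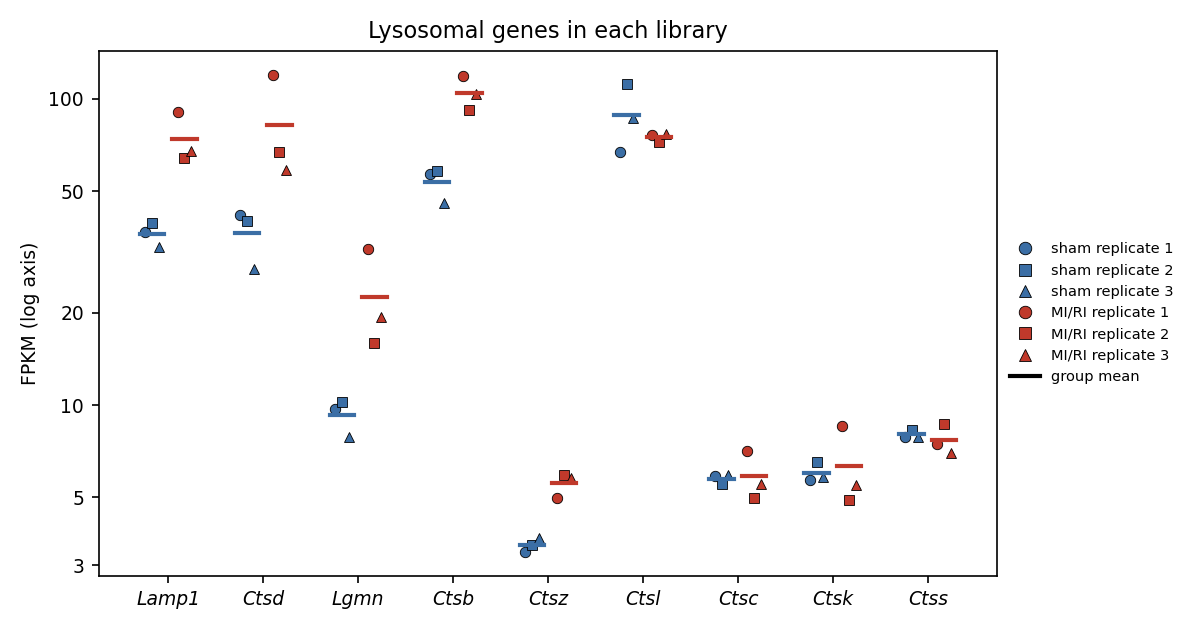
FPKM of each gene in each of the 6 libraries on a log axis, with sham in blue, MI/RI in red, the replicate number as the marker shape and the group mean as a bar. For Lamp1, Ctsd, Lgmn, Ctsb and Ctsz all 3 MI/RI libraries lie above all 3 sham libraries, whereas the groups overlap for Ctsl, Ctsc, Ctsk and Ctss. Such a separation upward was found for 37.2% of all genes tested.

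The order of the genes by level, compared in FPKM and therefore per length, differed between the groups at the top. In sham the mean levels ran from Ctsl (88.5 ± 22.3 FPKM) through Ctsb, Ctsd, Lamp1, Lgmn, Ctss, Ctsk and Ctsc to Ctsz (3.49 ± 0.180 FPKM). Among neighbours in that order, the sham ranges overlapped for Ctsd and Lamp1, for Lgmn and Ctss, and for Ctsk and Ctsc. In MI/RI the order was Ctsb (105 ± 13.5 FPKM), Ctsd, Ctsl and Lamp1, and the lower 5 kept their places. In that group the ranges of each of the first 4 overlapped with those of their neighbours, as did those of Ctss, Ctsk, Ctsc and Ctsz with theirs, whereas Lgmn stood apart from both its neighbours.

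As a share of the summed FPKM of the 9 genes, Ctsl made up 28.6%, 39.5% and 38.7% in the sham rats and 16.3%, 21.6% and 21.9% in the MI/RI rats. Every MI/RI share was below every sham share, and the means were 35.6% ± 6.08 and 19.9% ± 3.14 (SD, n = 3 each). Ctsb went from 21.7% ± 2.16 to 27.5% ± 2.11 and Lamp1 from 14.7% ± 0.871 to 19.3% ± 0.243, both without overlap. The share of Ctsd was 14.8% ± 2.76 in sham and 20.8% ± 4.56 in MI/RI, and these overlapped. These shares do not depend on the scaling of a library. As parts of a whole, the shares of some genes fall when the levels of others rise, without a fall of their own. The level of Ctsl was not called lower as deposited.

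Each protease was also set against Lamp1 within the same library, which removes the library's scaling. The mean log2 difference of a ratio is the gene's log2 fold change less that of Lamp1, 1.01 as deposited. These differences therefore restate the fold changes given above, and only the spread of the ratio is added. Relative to Lamp1, Ctsl, Ctss, Ctsc and Ctsk were lower in all 3 MI/RI rats than in any sham rat. Only 19.0% of the genes tested had a higher log2 fold change than Lamp1, so most genes had a lower mean ratio to it in MI/RI. The share of all genes with such a separation from Lamp1 was not computed, so it is not shown to be particular to these proteases. Ctsl measured 1.83, 2.84 and 2.64 FPKM per FPKM of Lamp1 in sham and 0.837, 1.13 and 1.14 in MI/RI, a mean log2 difference of -1.22 (95% confidence interval -1.90 to -0.54). Ctsc measured 0.159, 0.140 and 0.179 per Lamp1 in sham and 0.0779, 0.0778 and 0.0820 in MI/RI, a log2 difference of -1.002 (-1.29 to -0.71). The log2 difference was -0.98 (-1.26 to -0.71) for Ctsk and -1.08 (-1.68 to -0.47) for Ctss. These 4 ratios reached the smallest p that a two-sided exact permutation test of 3 against 3 allows (p = 0.1), which is 0.2 after adjustment over the 8 ratios, so none could pass a threshold of 0.05.

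For the remaining proteases the ratio to Lamp1 overlapped between the groups. The log2 difference was -0.04 for Ctsb (95% confidence interval -0.27 to 0.18), 0.10 for Ctsd (-0.49 to 0.70), 0.20 for Lgmn (-0.22 to 0.62) and -0.36 for Ctsz (-1.07 to 0.35). Without MI/RI replicate 1 the differences of Lgmn and Ctsz were 0.07 and -0.13, and without MI/RI replicate 2 they were 0.32 and -0.51. The exact permutation p lay between 0.3 and 0.7. The interval of Ctsb was the narrowest of the 8, and its log2 profile over the 6 libraries, after its own mean was subtracted, was the closest to that of Lamp1 of any pair among the 9 genes (root mean square distance 0.0841 log2 units). The next closest pairs were Ctsc with Ctsk (0.1291) and Ctsd with Lgmn (0.1678). A ratio to Lamp1 shows unequal change of the pair, and not which of them changed.

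**Figure D3:**
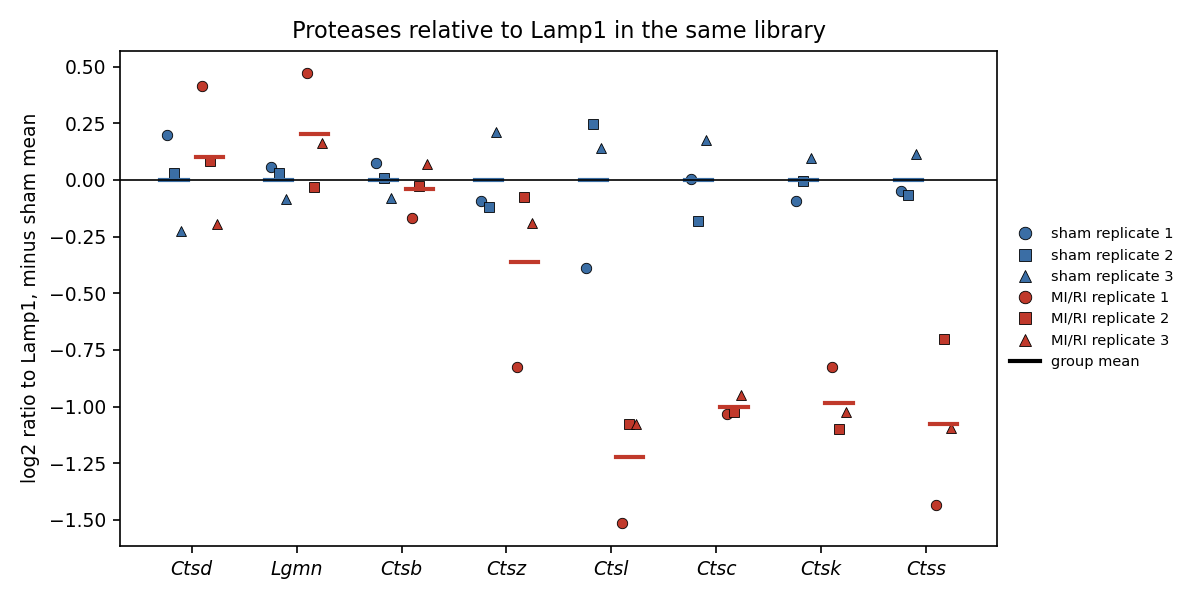
Log2 ratio of each protease to Lamp1 in the same library, minus the sham mean, with sham in blue, MI/RI in red, the replicate number as the marker shape and the group mean as a bar. Ctsl, Ctsc, Ctsk and Ctss lie below every sham library in all 3 MI/RI libraries, with mean differences from -1.22 to -0.98, and the other proteases overlap with sham. The share of all genes that separate from Lamp1 in this way was not computed.

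The log2 profile of each lysosomal gene over the 6 libraries, less its own mean, was compared with those of the other 3783 tested genes with a mean of at least 5 FPKM (3784 for Ctsz, itself below that mean). Nearest to Lamp1 were Grb2, Lamc1 and Fam50a (root mean square distance 0.0404, 0.0414 and 0.0428 log2 units), and nearest to Ctsb were Tmbim6, Ssu72 and Pqbp1 (0.0471, 0.0584 and 0.06). Nearest to Lgmn were Supv3l1, Eif3d and Eci3 (0.0506, 0.0525 and 0.0751), and nearest to Ctsd were Isca1 and Rnf10 (0.067 and 0.0845). Nearest to Ctsk was Chmp1a (0.0496), to Ctsc Hsd11b1 (0.061), to Ctss Tmem128 (0.0676) and to Ctsz Arpc3 (0.0584). The profiles share their 6 libraries and are a description of these samples.

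The remaining lysosomal genes were described through 7 lists chosen by role, which held 119 symbols, of which 107 were in the table and 92 passed the filter. Of these 92 genes, 23 (25.0%) were called higher and 5 (5.43%) lower in MI/RI, with a median log2 fold change of 0.32, close to the 25.5%, 7.36% and 0.29 of all genes tested. After the rescaling without mitochondrially encoded mRNAs, 3 were higher and 25 lower, beside 7.25% higher and 26.1% lower of all genes tested. The same shares of all genes stand beside the counts of each list below. The count of genes called higher also moved to 12 without sham replicate 2, 8 without sham replicate 3, and 15 without MI/RI replicate 1 or MI/RI replicate 3.

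Of 7 other cathepsins tested, 1 was higher and 1 lower (median log2 fold change 0.16), and 0 higher and 2 lower after the rescaling without mitochondrially encoded mRNAs. Ctsh, the gene of the aminopeptidase cathepsin H, measured 36.0, 36.6 and 31.5 FPKM in sham and 66.0, 53.0 and 65.2 FPKM in MI/RI (log2 fold change 0.82, limma adjusted p = 0.0199). Ctsw, a cathepsin of cytotoxic lymphocytes, measured 2.28, 3.21 and 5.11 FPKM in sham and 1.61, 1.93 and 1.71 FPKM in MI/RI (log2 fold change -0.90, limma adjusted p = 0.0398). The log2 fold changes of the 5 that did not pass were -0.12 for Ctso, 0.14 for Ctse, 0.16 for Ctsa, 0.48 for Ctsf and 0.60 for Napsa. Ctsg, which encodes a serine protease of neutrophil granules, was listed at 0 in all 6 libraries.

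The cathepsin inhibitors gave 0 calls among 3 tested by limma, with 1 higher at an unadjusted p under 0.05, and 1 lower after that rescaling. Cst3, the secreted inhibitor cystatin C, measured 197, 120.4 and 203 FPKM in sham and 152, 172 and 179 FPKM in MI/RI (log2 fold change -0.01). Cstb, the cytosolic inhibitor cystatin B, measured 25.1, 24.3 and 26.6 FPKM in sham and 46.7, 31.6 and 36.8 FPKM in MI/RI, with no overlap but an adjusted p above the threshold (log2 fold change 0.58, limma adjusted p = 0.079). The log2 fold change of Cst7, the leukocyte cystatin F gene, was 0.43 (limma adjusted p = 0.186).

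Among 17 other lysosomal membrane proteins, 5 were higher and 1 lower (median log2 fold change 0.06), and 0 and 8 after the rescaling. Cd63, a tetraspanin of late endosomes and lysosomes, had a log2 fold change of 1.06 (SE 0.31, limma adjusted p = 0.0257), and Scarb2, the receptor that carries glucocerebrosidase to the lysosome, 0.98 (adjusted p = 0.034). Tpcn2, a cation channel of the lysosomal membrane, was lower by limma (log2 fold change -0.97, adjusted p = 0.0269), and the nucleoside transporter gene Slc29a3 had a log2 fold change of -0.70 (adjusted p = 0.0516). Of 31 other hydrolases and activators, 6 were higher and 2 lower (median 0.19), and 0 and 9 after the rescaling. Gaa, acid alpha-glucosidase, which degrades lysosomal glycogen, rose by 1.31 and Smpd1, acid sphingomyelinase, by 1.24 on the log2 scale (limma adjusted p = 0.0112 and 0.0114). Pla2g15, a lysosomal phospholipase, and Idua, which degrades glycosaminoglycans, were lower, with log2 fold changes of -1.14 and -0.98 (limma adjusted p = 0.017 and 0.0335).

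The vacuolar ATPase, the proton pump that acidifies the lysosome, had 4 of 12 tested subunits and accessory genes higher and 0 lower by limma (median log2 fold change 0.56, unadjusted counts 7 and 0), and 1 higher and 0 lower after the rescaling, where the median was -0.21. Of all genes tested, 25.5% were called higher and 7.36% lower as deposited, and 7.25% and 26.1% after the rescaling. Atp6v0c, the proteolipid subunit of the membrane ring, measured 68.1, 47.6 and 35.9 FPKM in sham and 169, 135 and 143 FPKM in MI/RI (log2 fold change 1.60, SE 0.28, limma adjusted p = 0.00427). It kept its call after the rescaling without mitochondrially encoded mRNAs (log2 fold change 0.82, adjusted p = 0.019). Atp6v1e1, a stalk subunit, had a log2 fold change of 1.39 (limma adjusted p = 0.00655), while Atp6v1c1 and Atp6v0a1 did not pass, with values of 0.30 and 0.08. Genes of mannose 6-phosphate tagging and sorting gave 0 calls among 9 tested by limma, with 1 higher and 0 lower at an unadjusted p under 0.05, and 3 lower after the rescaling. The log2 fold changes of the sorting adaptor genes were 0.89 for Gga2 (limma adjusted p = 0.051), 0.36 for Gga1 and -0.52 for Gga3, and that of Nagpa, which uncovers the mannose 6-phosphate tag, was -0.38.

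The genes of MiT/TFE transcription factors and of mTORC1 docking at the lysosome had the highest median of the 7 lists (log2 fold change 0.78). Of 13 tested, 7 were called higher and 1 lower, and 2 and 2 after the rescaling, where the median was 0.05. The shares over all genes tested were 25.5% higher and 7.36% lower as deposited, and 7.25% and 26.1% after the rescaling. Among genes with a mean of at least 5 FPKM, 45.2% were called higher as deposited. Rragd, a Rag GTPase that brings mTORC1 to the lysosome, measured 1.93, 0.610 and 0.768 FPKM in sham and 5.31, 2.93 and 2.98 FPKM in MI/RI (log2 fold change 1.78, SE 0.40, limma adjusted p = 0.0102). Lamtor1, which anchors the Ragulator complex in the lysosomal membrane, measured 6.96, 6.94 and 6.34 FPKM in sham and 40.0, 16.1 and 15.5 FPKM in MI/RI (log2 fold change 1.66, SE 0.35, limma adjusted p = 0.008). Both kept their calls after the rescaling without mitochondrially encoded mRNAs, at log2 fold changes of 1.05 and 0.88 (limma adjusted p = 0.0352 and 0.0409). Flcn, whose product folliculin acts on the Rag GTPases, was lower, just past the threshold (log2 fold change -0.76, limma adjusted p = 0.0499), and Mitf, a factor of the MiT/TFE family, had a log2 fold change of -0.85 (adjusted p = 0.0551).

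**Figure D4:**
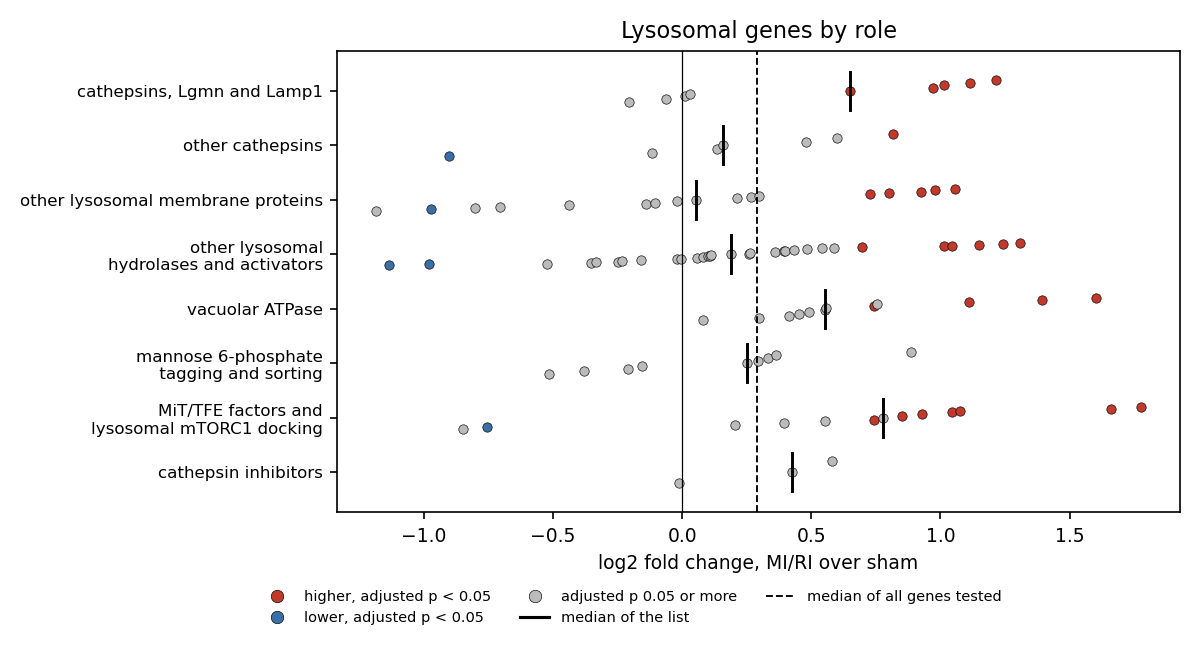
Log2 fold change, MI/RI over sham on the deposited scale, of each tested gene of the 9 lysosomal genes and of the 7 further lists, with red for genes called higher, blue for genes called lower, grey for the rest, a bar at each list's median and a dashed line at the median of all genes tested (0.29). The MiT/TFE and mTORC1 docking list has the highest median (0.78) and the other membrane proteins the lowest (0.06).

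Markers of the cell types in the tissue differed between the groups alongside the lysosomal genes. Beside the counts below, 25.5% of all genes tested were called higher and 7.36% lower as deposited, and 7.25% and 26.1% after the rescaling. Of 8 cardiomyocyte markers tested, 7 were called higher in MI/RI (median log2 fold change 2.28), with 6 called higher after the rescaling, and their summed level was 3529 to 11533 FPKM in sham and 23749 to 34449 FPKM in MI/RI. MI/RI replicate 1, the highest library for Lamp1, Ctsd, Lgmn, Ctsb, Ctsc and Ctsk, had the highest of these sums and the smallest mitochondrial share. Of 10 macrophage markers tested, 1 was higher and 2 lower, and 0 and 2 after the rescaling. Their sums were 99.0 to 107 FPKM in sham and 122 to 155 FPKM in MI/RI as deposited, whereas their share of the FPKM outside the mitochondrially encoded mRNAs was 0.0551% to 0.0835% in sham and 0.0437% to 0.0647% in MI/RI. The sums of the 8 neutrophil markers were 12.8 to 17.5 FPKM in sham and 27.7 to 81.4 FPKM in MI/RI, with 2 of 3 tested higher (1 after the rescaling) and Mpo listed at 0 in all 6 libraries. Nearly all of these sums came from the 2 called higher, S100a8 and S100a9 (37.2 and 42.1 FPKM in MI/RI replicate 3). Csf3r was not called (limma adjusted p = 0.15), and the rest were below the filter. Of 7 fibroblast markers 2 were higher as deposited, and 0 were higher and 2 lower after the rescaling. Of 4 lymphocyte markers 2 were lower as deposited and 3 after the rescaling. Endothelial, smooth muscle and red blood cell markers gave 0 calls among 7, 4 and 3 tested by limma, and at an unadjusted p under 0.05 only the endothelial list had any, 1 higher and 1 lower. After the rescaling 4, 0 and 2 of them were called lower and 0 higher. The part of cell makeup in the differences of the lysosomal genes was not tested.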

How the data were processed

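Myocardial RNA of 3 sham and 3 MI/RI rats was analysed. The authors deposited 1 table of FPKM values for 30452 rat Ensembl genes, made from stranded total RNA libraries. The submitters' processing notes name STAR and HTSeq. Versions, the genome build, the annotation and the strand setting are not given in the sources used here. An FPKM is relative to the whole library, so a few abundant transcripts can move all other values.

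Columns were matched to samples by name, and rows that shared a symbol were summed, leaving 28293 genes. Values were compared as log2(FPKM + 0.1) for the 10942 genes with a mean of at least 0.5 FPKM, with limma 3.58.1 in R 4.3.3 (lmFit, eBayes with an intensity trend) and Benjamini-Hochberg adjustment. Fold changes on this scale understate those of low genes. For ratios to Lamp1 the test was an exact permutation test, two-sided, in scipy 1.17.1, with confidence intervals from the pooled variance. The fit was tested on simulated data. The members and lists were chosen with earlier results of these data known. Named genes are all members, every tested gene of the other cathepsins and the inhibitors, and the 2 highest and 2 lowest log2 fold changes of each further list among genes with a mean of at least 1 FPKM, with the genes nearest in profile to a member by root mean square distance. Some of the nearest genes are not reported here.

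Among genes with a mean under 0.05 FPKM, values were whole multiples of a common step for 2522 of 2552 (98.82%, tolerance 0.001), which gave relative depths of 1.0, 1.18 and 1.14 for sham and 0.873, 0.935 and 0.881 for MI/RI. If the 6 counts of a gene share no common factor, the 9 lysosomal genes rest on 278 to 13431 fragments per library, a counting error of at most 6.0%. This covers counting error only. Nothing in the labels says how the samples were handled in batches. The limma p-values set the group difference against the spread between these samples, moderated across genes. The replicate numbers come from the titles. Deviations from the group means correlated at 0.20, 0.12 and 0.12 between same-numbered samples, all above 0.1, so the numbers were treated as pairing the samples in an alternative fit. The other alternatives were pseudocounts of 1 and 0.01, no filter or a minimum of 5 FPKM, quantile normalization, centring on the median, TPM, rescaling without mitochondrially encoded mRNAs, no intensity trend, the highest row of a symbol, and leaving out each rat.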

Additional observations from a re-analysis of the deposited data

How the results depend on the processing

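Calls of the 9 lysosomal genes held under both other pseudocounts, TPM, no intensity trend, the highest row of a symbol and the replicate block. With no filter Ctsd lost its call, and with a minimum of 5 FPKM Ctsz was not tested. With the replicate number as a block, 3085 genes were called higher and 895 lower against 2790 and 805, and the pairing changed no call of the 9 genes. Under quantile normalization 1441 genes were higher and 1559 lower, with 0 of the 9 genes higher and 2 lower (limma, unadjusted counts 1 and 4). Without mitochondrially encoded mRNAs 793 were higher and 2857 lower, with 0 and 3 of the 9. Centring on the median gave 1554 lower. TPM gave 504 lower and a minimum of 5 FPKM 166 lower. Calls were higher rather than lower for 77.6% as deposited, 91.9% with that minimum, 87.3% for TPM, 56.5% centred, 48.0% quantile normalized and 21.7% without mitochondrially encoded mRNAs. Of the 7 further lists, 14, 6 and 3 genes were higher when centred, quantile normalized and without mitochondrially encoded mRNAs, and 13, 13 and 25 lower. Genes lower were 1 with no filter, 2 with the 5 FPKM minimum and 1 for TPM.

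Directions turned for Ctsb under quantile normalization (-0.059), for Ctsz without mitochondrially encoded mRNAs (-0.12), for Ctss as TPM (0.13), and for Ctsc and Ctsk when centred (-0.24 and -0.22), quantile normalized (-0.43 and -0.43) and without mitochondrially encoded mRNAs (-0.76 and -0.74). The cause of these changes beyond the scaling itself was not tested. Leaving out each rat gave 1528 to 2557 genes higher and 309 to 881 lower, fewest higher without sham replicate 3 and fewest lower without sham replicate 2 (359 lower without sham replicate 3). Of the 9 genes, 2 to 4 were then higher by limma adjusted p, 2 without sham replicate 3 and 3 without sham replicate 2, and 0 lower. At an unadjusted limma p under 0.05, 5 were higher and 0 lower whichever rat was left out. Of the further lists, 8 to 23 were higher and 0 to 5 lower, with 0 lower without sham replicate 2, 1 without sham replicate 3 or MI/RI replicate 2, and 2 without MI/RI replicate 3. The log2 fold change ran from -0.13 to 0.12 for Ctsc, from -0.20 to 0.19 for Ctsk and from -0.15 to 0.0048 for Ctss, and the log2 ratio to Lamp1 from -0.097 to 0.020 for Ctsb and from -0.055 to 0.25 for Ctsd.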

Other observations

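The spread between rats was larger than the counting error for most of the 9 lysosomal genes. The coefficient of variation of Ctsd was 20.7% in sham and 40.6% in MI/RI, against a counting error of at most 1.87%, and that of Lgmn was 13.3% and 38.1%, against at most 3.65%. In sham, the coefficient of variation was 3.21% for Ctss, against at most 4.88%, and 3.67% for Ctsc, against at most 3.86%. Both bounds come from the MI/RI library with the fewest fragments (420 for Ctss and 671 for Ctsc). The sham libraries held 537 to 670 and 845 to 966 fragments, so their counting error is smaller. Ctsc in sham is therefore not shown to lie below its counting error. Ctsz in sham was at its bound (5.15%, against at most 5.16%).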
